A study of Rattus norvegicus with 6 samples.

Results

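Endothelial cells form the inner lining of arteries and control which blood cells stop there. Under inflammatory signals, much of it relayed by the transcription factor NF-kappaB, they display adhesion molecules that hold leukocytes, and they secrete chemokines that direct leukocytes to the vessel wall and cytokines that signal to other cells. The 7 genes described here cover these roles. They are the adhesion molecules Icam1 (ENSRNOG00000020679) and Vcam1 (ENSRNOG00000014333), the chemokines Ccl2 (ENSRNOG00000007159), Cxcl1 (ENSRNOG00000002802), Cxcl2 (ENSRNOG00000002792) and Cxcl10 (ENSRNOG00000022256), and the cytokine Il6 (ENSRNOG00000010278). They were chosen by name, and each was read from the row of the count table that carries its rat Ensembl identifier. All 7 rows were among the 32879 rows of the table, and 6 held enough counts to be tested.

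The cells were primary aortic endothelium, taken from the abdominal segment in rats (Rattus norvegicus), cultured on fibronectin and sequenced as full-length cDNA. Of the 6 libraries, 3 came from cells of genotype WT and 3 from cells labelled miR-337-3p knockdown, called KD here and titled KO by the submitters. One protocol sentence, shared by both groups, names a 100 nM inhibitor of hsa-miR-337-3p, so whether WT cells also received an inhibitor or a control is not given in the sources used here. Strain, age and sex of the animals are not given either, nor is it said whether replicates were separate cultures, so p-values measure the spread between these libraries, which may be technical. Estimated counts summed to between 5037127 and 5385434 per library and did not differ between the groups beyond their spread (two-sided exact permutation test, p = 0.6, where 20 arrangements allow no p below 0.1). Symbols were paired with identifiers for these 7 genes alone. The endothelial label was therefore not checked against other marker genes.

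The perturbed microRNA is a short RNA that pairs with messenger RNAs, mainly through its seed, and lowers their stability or translation. Its rat form is shown here because the labels say that miR-337-3p was reduced in the KD cells. The inhibitor is named for the human form, whose sequence was not at hand. Whether the human form has the same seed was therefore not checked. RefSeq places the rat mature form on the plus strand of GRCr8 at chr6:134321201-134321223, and its seed (bases 2 to 8) is in capitals:
rno-miR-337-3p: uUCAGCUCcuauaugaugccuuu
Neither the sequence of the inhibitor nor target sites in the 7 transcripts were analysed here.

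Promoter sequences of 6 of the 7 genes, all but Ccl2, were in the RefSeq-derived table (GRCr8). The 250 bases upstream of each annotated start were searched on both strands for the consensus of NF-kappaB, known as the kappaB motif, since that factor is the textbook activator of this group. The form searched was GGGRNNYYCC on either strand, where R is A or G, Y is C or T and N is any letter. Other forms, also those with C or T after GGG or with another first letter, were not searched and are not in capitals below. In this form a match was found in 5 of the 6 genes, all but Icam1, and in 6.33% of all 33469 upstream windows of that length. The genes were chosen by name and the form with the promoter sequences in view, so this is no test of enrichment. The lack of a match in Icam1 says only that this form is not in its window. That window holds TGGAAATTCC, which differs from the form searched in its first letter only. The windows of Vcam1 (chr2:206742784-206743033, minus strand) and Cxcl1 (chr14:17479322-17479571, minus strand), the genes that rose in KD cells, are printed whole, with kappaB matches in capitals:
Vcam1: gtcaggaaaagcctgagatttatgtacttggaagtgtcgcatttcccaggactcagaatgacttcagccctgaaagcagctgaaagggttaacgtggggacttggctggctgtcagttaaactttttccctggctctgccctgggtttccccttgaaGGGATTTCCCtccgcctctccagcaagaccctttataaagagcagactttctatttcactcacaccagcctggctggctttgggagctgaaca
Cxcl1: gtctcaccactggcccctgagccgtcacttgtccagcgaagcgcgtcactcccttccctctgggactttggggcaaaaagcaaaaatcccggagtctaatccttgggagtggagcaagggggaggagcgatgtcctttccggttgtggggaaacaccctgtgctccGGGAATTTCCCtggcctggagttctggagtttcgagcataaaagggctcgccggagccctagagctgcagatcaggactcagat

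For comparison, 30-base windows around the matches are given for the other genes with a match. They lie at chr14:15988869-15988898 and chr14:15988928-15988957 (Cxcl10, plus strand), chr4:5894624-5894653 (Il6, minus strand) and chr14:17467310-17467339 (Cxcl2, minus strand):
Cxcl10, distal: gcaggaaagaGGGAAATTCCaagctcatgg
Cxcl10, proximal: tttaacatcaGGGAACTTCCCtcgaaggtt
Il6: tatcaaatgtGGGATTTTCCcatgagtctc
Cxcl2: cctaagctcaGGGGATTTCCCtgatccctg
Capital runs of 11 letters in Cxcl1, Cxcl2 and the proximal Cxcl10 window are 2 overlapping matches shifted by 1 base. Counting back from the annotated start, the match lay at -93 to -84 in Vcam1, began at -84 in Cxcl1 and at -74 in Cxcl2, and lay at -68 to -59 in Il6. In Cxcl10 the matches began at -187 and -128. Matches thus stood upstream of genes that rose, of genes that did not pass and of a gene near the detection limit. Of 2 other motifs searched in the same way, the AP-1 motif TGANTCA was found in Cxcl10 alone, from -96 to -90, and in 6.34% of all windows. The letters TATAAA were found in Icam1 (-53 to -48), Vcam1 (-60 to -55, with an overlapping match on the opposite strand) and Cxcl10 (-162 to -157), and in 12.9% of all windows. A match describes letters and does not show that a factor was bound.

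The genes moved in both directions in KD cells. Ccl2 fell, with a KD to WT ratio of mean levels of 0.337, Cxcl1 and Vcam1 rose, and Icam1, Il6 and Cxcl10 did not pass the test. Cxcl2 was close to 0 in both groups. Of the 6 genes tested, 2 rose, 1 fell and 3 did not pass; all 12852 tested rows entered one edgeR quasi-likelihood fit, and a gene passed at a Benjamini-Hochberg adjusted p below 0.05. Of all rows 21.2% passed, 11% upward (1409 rows) and 10.3% downward (1321 rows). This balance moved with the scaling: with library size alone 1234 rows rose and 1633 fell. The median log2 fold change was 0.05 over the 6 genes, which ranged from -1.52 to 0.82, and -0.00332 over all rows. With 6 genes picked by name, no test was made of the group. Levels are in CPM (counts per 1000000 counts of the library) and can be compared between libraries for 1 gene but not between genes.

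**Figure D1:**
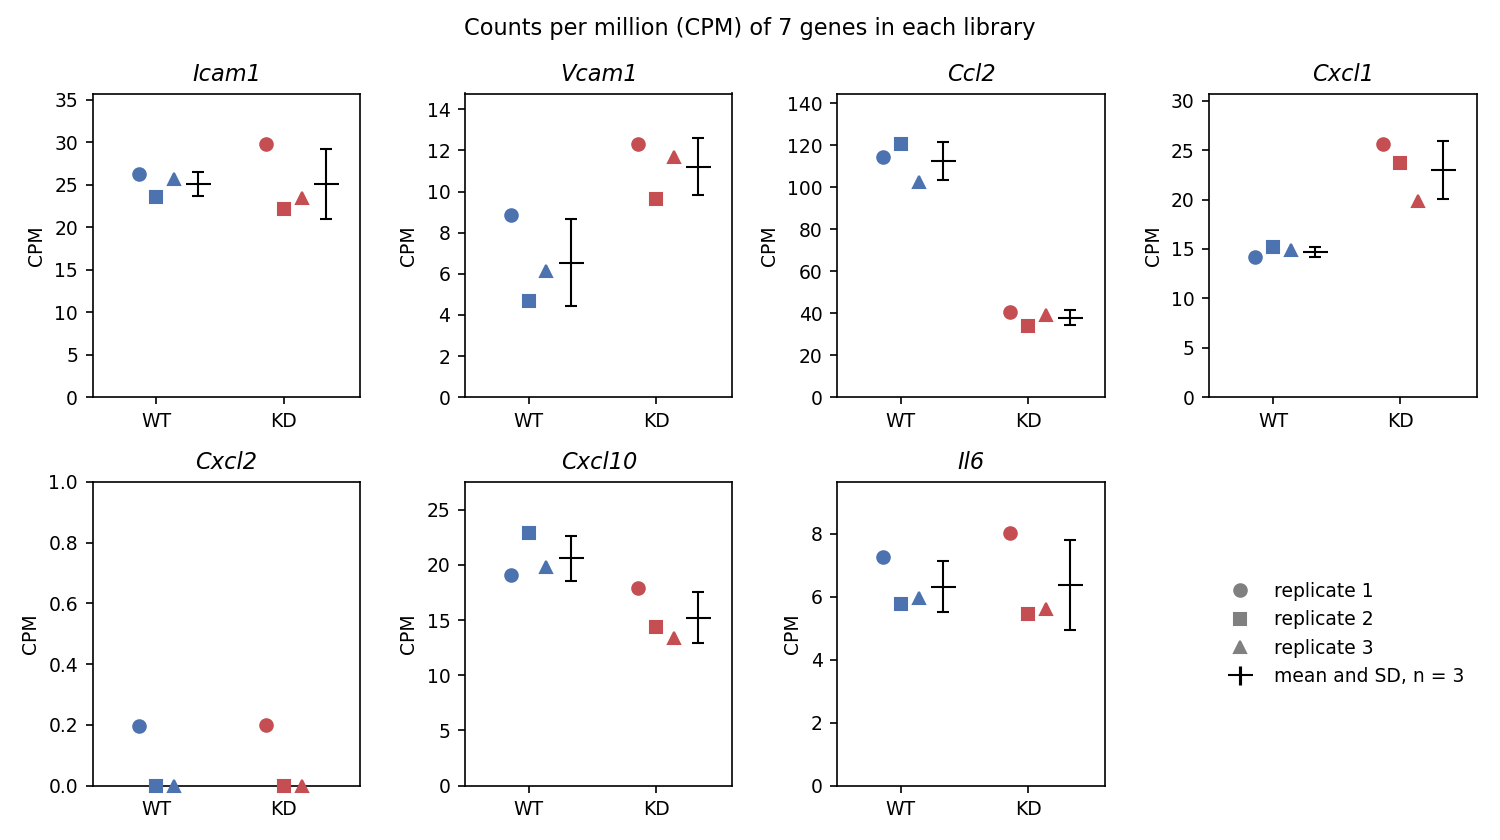
CPM of each of the 7 genes (vertical axes, each starting at 0) in the 3 WT (blue) and 3 KD (red) libraries; marker shape gives the replicate number, and bars give the mean and SD (n = 3), not drawn for Cxcl2. Ccl2 separates the groups most widely, from 103 to 121 CPM in WT and from 33.7 to 40.7 in KD libraries.

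Among the chemokines, Ccl2, also called MCP-1, attracts monocytes through the receptor Ccr2. It stood at 114, 121 and 103 CPM in WT replicates 1, 2 and 3 and at 40.7, 33.7 and 39.3 CPM in KD replicates 1, 2 and 3. Every KD library lay far below every WT library. The WT mean was 112 ± 9.19 CPM and the KD mean 37.9 ± 3.70 CPM (SD, n = 3 each), and the log2 fold change was -1.52, with a standard error (SE) of 0.10 (edgeR adjusted p = 1.1e-10). In fitted terms it was 2.87-fold lower in KD cells, with a 95% interval of 2.49 to 3.32. Only 1.27% of all tested rows had a larger fitted fall, and by p it ranked 78 of 12852. Ccl2 passed in the same direction in each of the 16 alternatives run, with log2 fold changes of -1.57 to -1.44. In bulk RNA, fewer cells making a transcript and less of it per cell cannot be told apart, here or in the results that follow.

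Cxcl1, a ligand of the receptor Cxcr2 that recruits neutrophils, moved the other way. Its CPM were 14.1, 15.1 and 14.9 in WT replicates 1, 2 and 3 and 25.6, 23.7 and 19.8 in the KD replicates in the same order. The groups did not overlap, and the WT libraries lay within about 1 CPM of one another. Their coefficient of variation was 3.53%, where counting error alone gives 11.4%, so this closeness does not measure precision. The WT mean was 14.7 ± 0.520 CPM and the KD mean 23.0 ± 2.94 CPM (SD, n = 3 each). The log2 fold change was 0.69 with an SE of 0.14 (edgeR adjusted p = 0.00088), a fitted rise of 1.61-fold with a 95% interval of 1.32 to 1.98. A larger fitted rise was seen in 6.88% of tested rows, so the size of this change was not rare in the data set. It passed in all 16 alternatives, with log2 fold changes of 0.62 to 0.78 and adjusted p of at most 0.0069.

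Cxcl10, also called IP-10, is an interferon-induced ligand of Cxcr3 that attracts activated T cells. It stood at 19.1, 22.9 and 19.8 CPM in WT replicates 1, 2 and 3 and at 17.9, 14.4 and 13.4 CPM in the KD replicates. All KD libraries lay below all WT libraries, but KD replicate 1 came within 1.2 CPM of WT replicate 1. The WT mean was 20.6 ± 2.05 CPM and the KD mean 15.2 ± 2.34 CPM (SD, n = 3 each). The log2 fold change was -0.39 with an SE of 0.15 and did not pass (edgeR adjusted p = 0.064; 95% interval -0.70 to -0.08, not adjusted for the number of rows). The call was on the edge of the threshold. It passed without KD replicate 1 (log2 fold change -0.52, edgeR adjusted p = 0.025) and with library size alone as scaling (-0.44, adjusted p = 0.040), and adjusted p reached 0.26 with DESeq2.

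Cxcl2, like Cxcl1 a Cxcr2 ligand, was too low to test. Its count was 1 in WT replicate 1 and 1 in KD replicate 1 and 0 in the other 4 libraries. In the 4 libraries with a count of 0, that count allows up to 0.557 to 0.583 CPM in a single library (3 counts of its total), so no ratio is given. Summed over a group, 1 count corresponds to 0.0640 CPM in WT, with an exact Poisson 95% interval of 0.00162 to 0.357, and to 0.0647 CPM in KD, with an interval of 0.00164 to 0.360, for counting error only. Cxcl1 and Cxcl2 are related chemokine genes, both on chromosome 14 of GRCr8. How the counter divided reads between similar genes is not given, so their split is uncertain. The Cxcl1 estimates were whole numbers in all but 2 libraries.

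Of the adhesion molecules Vcam1 rose and Icam1 did not pass; the difference between them was not tested, and their ratio is given with those of the other pairs. Vcam1 binds the leukocyte integrin VLA-4 and helps monocytes and lymphocytes to settle on activated endothelium. It stood at 8.84, 4.66 and 6.13 CPM in WT replicates 1, 2 and 3 and at 12.3, 9.64 and 11.7 CPM in the KD replicates. All KD libraries were higher than all WT libraries, with WT replicate 1 next below KD replicate 2. The WT mean was 6.54 ± 2.12 CPM and the KD mean 11.2 ± 1.39 CPM (SD, n = 3 each). Vcam1 rose, its log2 fold change being 0.82 with an SE of 0.21 (edgeR adjusted p = 0.0073), a fitted 1.77-fold with a 95% interval of 1.30 to 2.41. This call depended on WT replicate 2, the lowest library: without it the log2 fold change was 0.63 and did not pass (edgeR adjusted p = 0.064). The row rests on few reads, 102 rounded counts over the WT and 173 over the KD libraries, and the WT libraries varied with a coefficient of variation of 32.4%, where counting error alone gives 17.1%.

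Icam1, the endothelial ligand of the integrins LFA-1 and Mac-1 that lets leukocytes adhere firmly, did not pass. Its CPM were 26.2, 23.5 and 25.6 in WT replicates 1, 2 and 3 and 29.8, 22.1 and 23.4 in the KD replicates. The KD libraries held both the highest and the lowest value, and the groups overlapped. The WT mean was 25.1 ± 1.43 CPM and the KD mean 25.1 ± 4.10 CPM (SD, n = 3 each). The log2 fold change was 0.04 with an SE of 0.13 (edgeR adjusted p = 0.86). Its 95% interval, 0.853-fold to 1.25-fold, leaves room for a change of either sign of about this size.

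Il6, a cytokine that endothelial cells release on activation and that drives the acute-phase response, also did not pass. It stood at 7.26, 5.78 and 5.95 CPM in WT replicates 1, 2 and 3 and at 8.04, 5.47 and 5.62 CPM in the KD replicates. The groups overlapped over most of their range. The WT mean was 6.33 ± 0.809 CPM and the KD mean 6.38 ± 1.44 CPM (SD, n = 3 each), with a log2 fold change of 0.06 and an SE of 0.22 (edgeR adjusted p = 0.89). With 99 rounded counts in each group the 95% interval reached from 0.754-fold to 1.44-fold, which leaves room for a change of either sign within that range. The Il6 estimates were fractional in all 6 libraries, those of the other genes in 0 to 3.

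**Figure D2:**
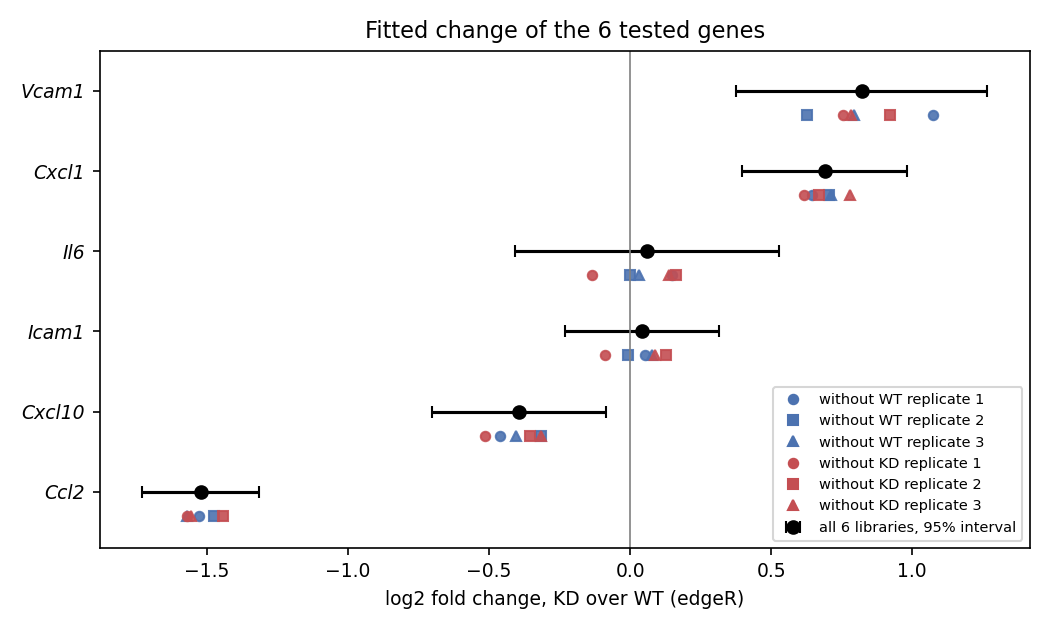
Fitted log2 fold change (KD over WT, horizontal axis) of the 6 tested genes, with the approximate 95% interval from all 6 libraries (black) and, below each, the value with 1 library left out (blue for a WT, red for a KD library). Ccl2 stays between -1.57 and -1.44 and Cxcl1 between 0.62 and 0.78, while Icam1 and Il6 lie on either side of 0 depending on the library left out.

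By non-overlap of CPM, 4 of the 6 tested genes separated the groups: Cxcl1 and Vcam1 with KD above, Ccl2 and Cxcl10 with KD below. Over all tested rows 35.4% were separated, 14.9% with KD above and 20.5% with KD below. Non-overlap alone was therefore common in these data. CPM here rest on library totals alone, a scaling under which the fit also called more rows lower (1633) than higher (1234) in KD cells.

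**Figure D3:**
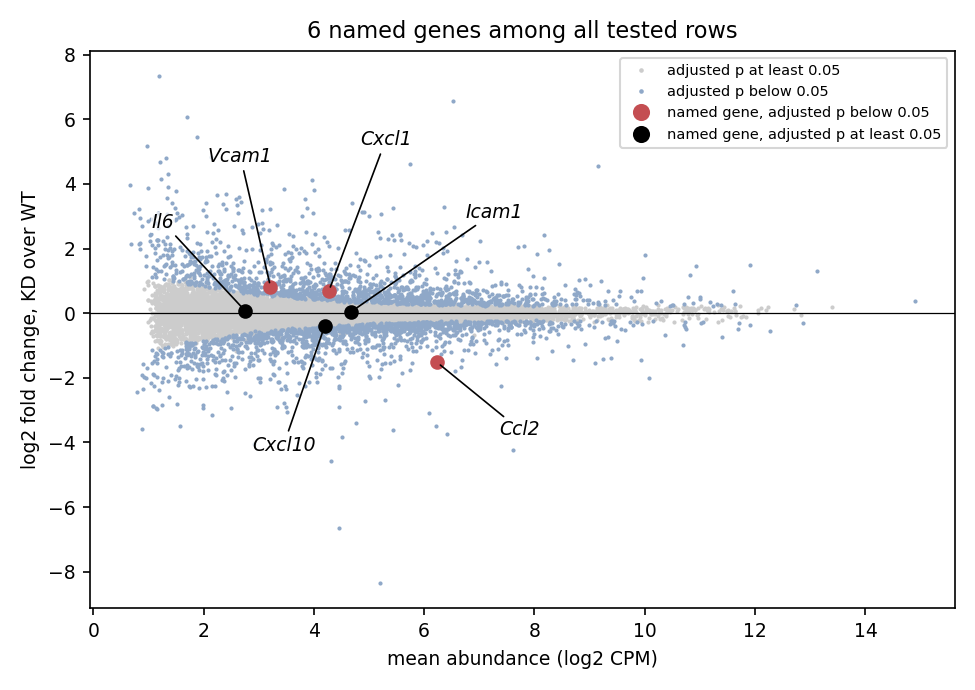
Log2 fold change (KD over WT) against mean abundance (log2 CPM) for all 12852 tested rows, grey where the adjusted p is at least 0.05 and blue where it is below; the 6 tested genes are named, in red where they passed. Ccl2 lies below most rows of its abundance, and Vcam1 and Cxcl1 lie above 0 within the blue rows.

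Ratios of 2 genes inside a library do not depend on library size or scaling, and 5 such pairs were computed as a description, after the values of single genes were known. The count ratio of Ccl2 to Cxcl1 was 8.08, 7.96 and 6.89 in WT replicates 1, 2 and 3 and 1.59, 1.42 and 1.98 in the KD replicates. The WT mean of this ratio was 7.64 ± 0.659 and the KD mean 1.66 ± 0.286 (SD, n = 3 each), a 4.59-fold difference between the groups. The balance of the monocyte to the neutrophil chemokine transcript was lower in each KD library than in any WT library. This separation follows from the single genes, as Ccl2 lay below and Cxcl1 above every WT library, and adds no further evidence. The ratio of Cxcl10 to Cxcl1 was 1.40 ± 0.101 in WT against 0.661 ± 0.0469 in KD, and that of Ccl2 to Cxcl10 was 5.48 ± 0.452 in WT against 2.52 ± 0.358 in KD (SD, n = 3 each). Neither overlapped between the groups. For Cxcl10 to Cxcl1 this again follows from the single genes. Ccl2 was lower in KD cells also relative to Cxcl10. The ratio of Vcam1 to Icam1 was 0.337, 0.198 and 0.239 in WT replicates 1, 2 and 3 and 0.413, 0.435 and 0.499 in the KD replicates. This ratio was higher in each KD library than in any WT library. Mean Icam1 was 25.1 CPM in both groups, so the ratio mostly repeats the Vcam1 values and adds no separate evidence. WT replicate 1 and KD replicate 1 came nearest, with Vcam1 counts of 45 and 62. The ratio of Il6 to Icam1 was 0.252 ± 0.0229 in WT against 0.252 ± 0.0157 in KD (SD, n = 3 each), and the groups overlapped.

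**Figure D4:**
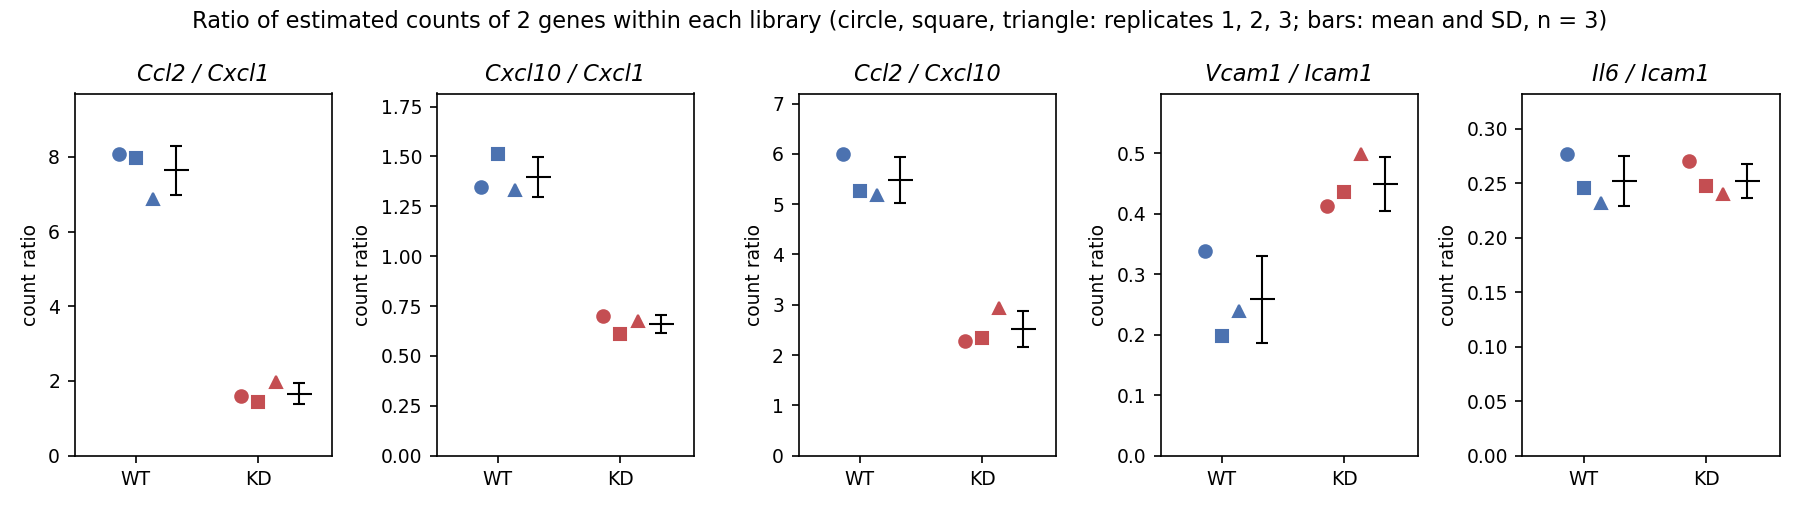
Ratio of the estimated counts of 2 genes within each library (vertical axes, each starting at 0) for 5 pairs, in WT (blue) and KD (red) libraries; bars give the mean and SD (n = 3). The ratio of Ccl2 to Cxcl1 lies between 6.89 and 8.08 in WT and between 1.42 and 1.98 in KD libraries, and that of Il6 to Icam1 overlaps between the groups.

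KD replicate 1 had the highest CPM of the 3 KD libraries for all 6 tested genes, those that rose, fell or did not pass alike. Over all tested rows it was the highest KD library in 38.1%, KD replicate 2 in 35.7% and KD replicate 3 in 26.2%, so it did not stand far above replicate 2 in general. In WT libraries replicate 1 was highest for 3 of the genes and replicate 2 for the other 3. Without KD replicate 1 the log2 fold change was -0.09 for Icam1 and -0.14 for Il6, neither past the threshold (edgeR adjusted p = 0.69 and 0.76), while Ccl2 (-1.57), Cxcl1 (0.62) and Vcam1 (0.76) still passed.

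Rows with the most similar pattern were sought for the 3 genes that passed, by the root mean square difference of centred log2(CPM + 0.5) over the 6 libraries. The table gives no symbols for them, so they are named by identifier. Since they were picked for matching a gene that had passed, their difference between the groups follows from the choice and is given with no test. ENSRNOG00000010265 was nearest to Ccl2, with a difference of 0.0637 log2 units, with 25.9 ± 1.92 CPM in WT and 8.94 ± 1.19 CPM in KD (SD, n = 3 each). ENSRNOG00000060773 was nearest to Cxcl1, with a difference of 0.0298, with 8.57 ± 0.278 CPM in WT and 13.3 ± 1.52 CPM in KD (SD, n = 3 each). ENSRNOG00000008178 was nearest to Vcam1, with a difference of 0.0916, with 2.95 ± 0.799 CPM in WT and 5.51 ± 0.750 CPM in KD (SD, n = 3 each). Likeness over 6 libraries in 2 groups is a description and says nothing about function.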

How the data were processed

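Values came from 1 deposited table of estimated counts per gene for 6 libraries, not normalized by the authors as judged from column totals. Of all values, zeros included, 21.6% were not whole, which by itself does not tell whether values were normalized. The build was mRatBN7.2, per the submitters' processing notes. No aligner, counter, annotation release or strand setting is named there. Estimates were rounded, filtered with filterByExpr, scaled with TMM factors and fitted by group in edgeR 4.0.16 (R 4.3.3). The quasi-likelihood F test was used, and p-values were adjusted by Benjamini-Hochberg across every row tested. Standard errors (the fitted log2 fold change over the root of F) and the intervals made from them, with the test's degrees of freedom, are approximate. CPM used library totals without TMM factors. DESeq2 1.42.0, voom in limma 3.58.1, other scalings, filters and thresholds, a block for the replicate number and the omission of each library served as alternatives. Unrounded estimates were added after seeing the data.

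The 7 genes and all tests were chosen with earlier results of these data known, and the motif forms with the promoter sequences in view. All 7 genes are named whatever their values. The rows of most similar pattern were sought for genes that passed and whose higher group averaged 10 CPM or more. No wider gene list or cell type marker list was run, as 0 rows of the RefSeq gene list (GRCr8) carry an Ensembl identifier. Pairs of libraries within a group differed by more than counting error (chi-square per degree of freedom of 2.02 to 5.86), so no library was taken for a second deposit of another; this does not show that they came from separate cultures. Intervals and limits from counts cover counting error alone and leave out the spread between libraries. The labels mention no molecular identifiers, so duplicate reads could not be told from separate molecules.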

Additional observations from a re-analysis of the deposited data

How the results depend on the processing

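Ccl2 and Cxcl1 kept their call under every alternative run. In the main analysis 2 genes rose, against 1 at a mean count of at least 50, where Vcam1 and Il6 fell below the filter and were not tested; the count was 1 to 2 with single libraries left out, Vcam1 being lost without WT replicate 2. One gene fell in the main analysis and 2 with library size alone, Cxcl10 being added; with single libraries left out the count was 1 to 2, Cxcl10 again being added without KD replicate 1. The sign of Icam1, never past the threshold, turned with library size alone (-0.002), and its log2 fold change ranged from -0.090 to 0.126 with single libraries left out, that of Il6 from -0.135 to 0.163. Over all rows 1321 fell, against 842 with DESeq2 (the cause was not tested) and 824 at an adjusted p of 0.01, a stricter threshold by construction. Rows that rose also became fewer, from 1409 to 1042 with DESeq2 and to 996 at the stricter threshold. With the replicate block 1500 rows rose and 1460 fell, and no call among the 6 tested genes changed; Cxcl10 had an edgeR adjusted p of 0.054. Deviations of same-numbered libraries correlated across rows at -0.0164, 0.00448 and 0.0376, and not every library correlated best with its own number. No pairing by replicate number was seen in this, but such correlations cannot exclude shared animals or cultures. Unrounded estimates changed no call among the 6. Depth limits Cxcl2 most, then Il6 and Vcam1.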
